A study of Mus musculus with 28 samples.

Results

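Sperm small RNA from wild type (WT) mice given a medium or a high dose of alcohol was compared with sperm small RNA from WT mice without alcohol. The comparison was chosen by the labels: 2 high-dose and 2 medium-dose libraries were pooled into 1 group of 4 and set against 4 control libraries, which makes 8 of the 28 libraries of the series. Total sperm RNA was extracted with Trizol, and libraries were built by a Qiaseq small RNA method. The amount of alcohol behind each dose name, the route, the duration, the strain, the age of the mice and the number of mice behind a library are not given in the sources used here. Nothing in the labels says that libraries of a group came from separate animals. The p-values therefore measure only the spread between libraries, which may be technical. The 4 WT libraries at a low dose of alcohol were not compared here. They entered the main fits of single RNAs, where they shared in the filter, the scaling and the estimate of the spread. Libraries are called control 1 to 4, high dose 1 and 2, and medium dose 1 and 2. In the count table, the column of medium dose 1 starts with the same letter as those at high dose, and the label was followed. Pooling both doses makes the comparison independent of that label.

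Mature sperm make almost no new RNA. The small RNA they carry is a mixture of fragments left from spermatogenesis, such as piRNAs cut from long cluster transcripts, and of miRNAs and tRNA fragments, part of which is gained while sperm pass through the epididymis, the duct where sperm mature. miRNAs are short RNAs that pair with target transcripts mainly through the seed, the stretch of bases near the 5′ end. In mice, sperm RNA has been studied as a route by which a father's diet, stress or drug exposure can reach the offspring.

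Mature miRNAs described in the results are printed below from RefSeq (GRCm38.p6), 5′ to 3′, with the seed (bases 2 to 8) in capitals. Of the 69 miRNAs named by rule, 58 matched an entry by name. The first group holds miRNAs whose levels did not overlap between the groups.
miR-101a-3p: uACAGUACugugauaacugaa
miR-139-5p: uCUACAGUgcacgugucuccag
miR-184-3p: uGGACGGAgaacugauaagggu
let-7c-2-3p: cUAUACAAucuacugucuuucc

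The second group holds epithelial miRNAs, miR-10 miRNAs with their relative miR-99a-5p, and the miR-29 family. These had higher control means and overlapping libraries. miR-200b-3p and miR-429-3p share 1 seed, as do miR-10a-5p and miR-10b-5p and the 3 miR-29 members.
miR-205-5p: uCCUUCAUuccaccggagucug
miR-200a-3p: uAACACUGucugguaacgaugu
miR-200b-3p: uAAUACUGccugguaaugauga
miR-429-3p: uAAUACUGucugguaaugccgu
miR-10a-5p: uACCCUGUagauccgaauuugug
miR-10b-5p: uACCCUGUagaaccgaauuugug
miR-99a-5p: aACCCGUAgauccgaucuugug
miR-29a-3p: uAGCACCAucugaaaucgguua
miR-29b-3p: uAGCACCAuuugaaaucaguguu
miR-29c-3p: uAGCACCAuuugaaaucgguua

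The third group holds the red blood cell miR-451a, the abundant miR-191-5p, and a testis miRNA whose 3 named copies have 1 and the same mature sequence.
miR-451a: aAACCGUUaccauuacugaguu
miR-191-5p: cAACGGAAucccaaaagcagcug
miR-465a-3p: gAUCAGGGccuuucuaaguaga
miR-465b-3p: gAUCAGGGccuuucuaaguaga
miR-465c-3p: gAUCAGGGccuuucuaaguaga

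Total counts ran from 1993933 (control 3) to 11119711 (control 1), and miRNA counts from 227577 to 1321483. Reads of structural RNA appear to have been counted at several near-identical gene copies. How such reads were assigned is not given, so shares are of counts and may differ from shares of reads. For tRNA-Gly-GGY, 10 of 26 copies were within 10% of the highest, and the sum over copies was 10.8 times the highest copy. Control 1 stood apart: structural RNA made up 75.8% of its counts, against 22.5% to 28.7% in the other controls and 28.3% to 31.8% in the treated libraries. High dose 1 held the largest exon share, 9.60%, against 6.40% to 6.61% in the other treated libraries. All 14 sperm and spermatid marker genes had exon counts. The levels of Prm1, which encodes a protamine that packs sperm DNA, ran from 19.7 to 47.1 CPM. CPM of single features are counts scaled to the library size multiplied by a scaling factor (TMM), here over all classes but miRNA. The factor was 0.430 in control 1 and 0.929 to 1.23 in the other libraries, so these CPM are not shares of counts. Because of the shares of control 1 and high dose 1, many results below are also given without control 1 or without high dose 1.

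The share of miRNAs was 4.26%, 16.04%, 11.4% and 13.5% in controls 1 to 4, 13.1% and 19.4% in high dose 1 and 2, and 18.2% and 12.6% in medium dose 1 and 2. Controls 2 to 4 and the treated libraries overlapped, and control 1 alone was far below. The means were 15.8% ± 3.48 (SD, n = 4) after alcohol and 11.3% ± 5.07 (SD, n = 4) in controls (exact two-sided permutation test, p = 0.2), and the difference of 4.51 percentage points was 2.15 without control 1. The mean share of piRNA clusters was 29.996% ± 1.59 (SD, n = 4) after alcohol and 28.9% ± 12.8 (SD, n = 4) without, and the difference of 1.13 percentage points turned to -5.18 without control 1. For structural RNA the difference of -7.45 points turned to 5.23 without control 1. Over the 8 classes the adjusted p was 1 in each case, and 1 class alone cannot go below 0.229 with 4 against 4 libraries.

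**Figure D1:**
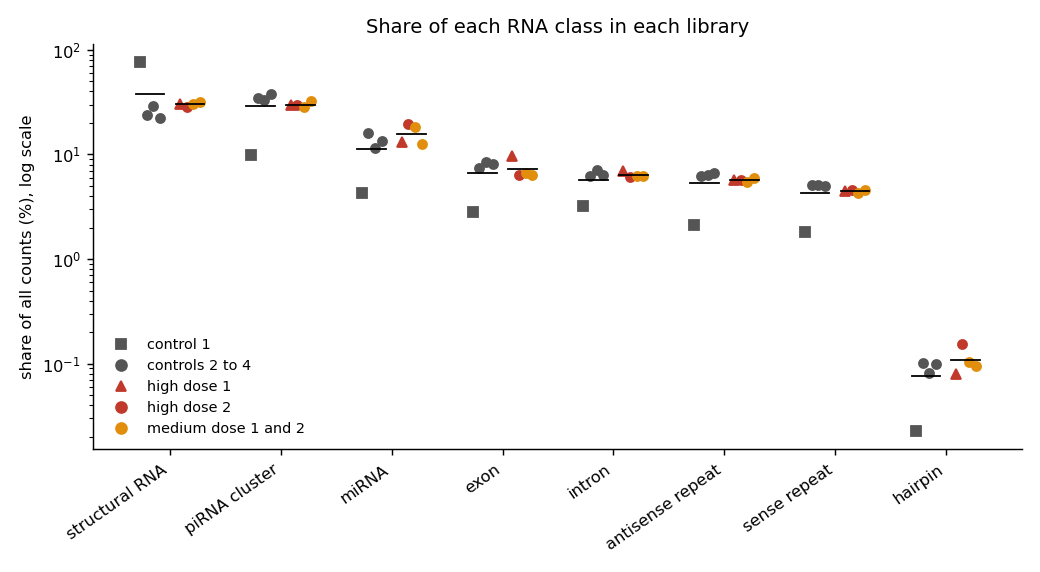
Share of all counts (%, log axis) of each RNA class in each library, with controls left and treated libraries right and a bar at each mean. Control 1 is at 75.8% structural RNA and lowest for the other 7 classes, and the other libraries lie close together.

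Across single RNAs, no miRNA and no other feature passed the test. edgeR's quasi-likelihood F test called 0 of 289 miRNAs (0%) at an adjusted p under 0.05, and 19 had an unadjusted p under 0.05, of which 6 were higher and 13 lower after alcohol. It called 0 of 14825 other features (0%), and the unadjusted p was under 0.05 for 335 higher and 142 lower features, 477 in all. The lowest adjusted p was 0.715 among miRNAs and 0.865 among other features. DESeq2 called 6 miRNAs and 1 other feature. In the miRNA family, 5 of 289 (1.73%) were higher in all 4 treated libraries than in every control and 6 (2.08%) were lower. In the other family, 219 of 14825 (1.48%) were higher in this sense and 77 (0.519%) lower. If an RNA did not differ, 1 of the 70 groupings of 4 against 4 libraries would separate it in a given direction. The differences below are therefore levels and differences in these libraries, on the log2 scale with their standard errors (SE), and none passed adjustment in the 8-library comparison by edgeR.

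miR-101a-3p, a miRNA known to target the chromatin modifier Ezh2, was lower in every treated library than in every control. It stood at 1431, 821, 822 and 511 CPM in controls 1 to 4. It was at 409 and 183 CPM in high dose 1 and 2, and at 381 and 82.7 CPM in medium dose 1 and 2. For miRNAs, CPM are counts scaled to the size of the miRNA family multiplied by its scaling factor, which was 2.27 in control 4. The highest treated library, high dose 1, lay below the lowest control, control 4. The log2 difference was -1.76 (SE 0.57, unadjusted p = 0.00953, adjusted p = 0.715), and it was -1.40 without control 1 and -1.91 without high dose 1. DESeq2 called it, with an adjusted p of 0.0470. The related entry mir-101b overlapped between the groups, at 1270, 1893, 1531 and 895 CPM in controls and 1064, 1078, 1343 and 1196 CPM after alcohol (log2 difference -0.26, SE 0.37, unadjusted p = 0.501).

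The entry mir-7214 was at 458, 207, 292 and 205 CPM in controls and at 118, 120, 140 and 139 CPM in the treated libraries, in the same order. The treated libraries were alike and lay under all controls, with a log2 difference of -1.17 (SE 0.42, unadjusted p = 0.0174). miR-139-5p was much less abundant, at 18.4, 13.5, 8.10 and 15.1 CPM in controls, 4.20 and 7.48 CPM at high dose and 6.24 and 5.09 CPM at medium dose. Control 3 and high dose 2 nearly met. The other entries lower in this sense were mir-7221, mir-7223 and miR-183-5p, named here after their values were seen. miR-183-5p, of a cluster best known from sensory cells, was listed at 0 in high dose 1 and at 179 to 227 CPM in the other treated libraries, against 239 to 680 CPM in controls.

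Among the 5 miRNAs higher in all treated libraries, miR-184-3p, abundant in the cornea and also present in testis, was the most abundant. It stood at 1691, 1919, 1320 and 1599 CPM in controls, 2257 and 3178 CPM at high dose, and 1935 and 4062 CPM at medium dose. Medium dose 1 was only just above control 2. The log2 difference was 0.81 (SE 0.37, unadjusted p = 0.0486). let-7c-2-3p, the minor strand of a let-7 precursor, was at 7.90, 4.49, 8.10 and 2.60 CPM in controls against 15.97, 16.8, 9.71 and 11.4 CPM in the treated libraries, a difference of 1.37 (SE 0.49). miR-146b-5p, a brake on inflammatory signalling, ran from 35.04 to 52.8 CPM in controls and from 54.6 to 67.4 CPM after alcohol. The remaining members were miR-486a-5p and miR-486b-5p, both listed at 0 in control 1. These miRNAs were singled out for not overlapping, after their values were seen.

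**Figure D2:**
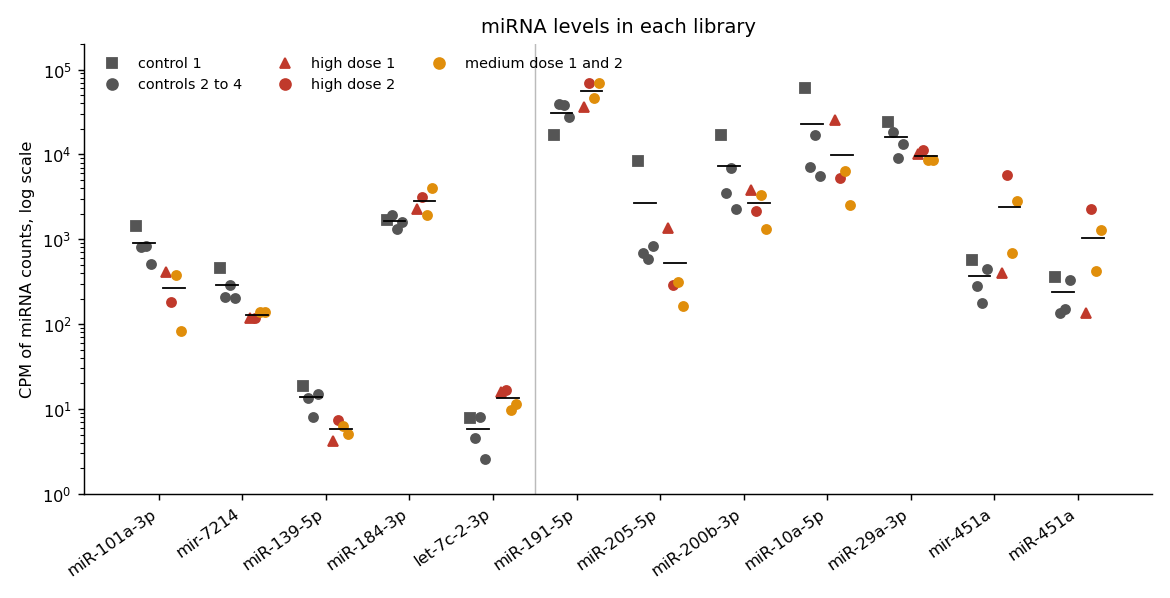
CPM with the scaling factor of the miRNA family (log axis) of 12 miRNA entries in each library. Controls are left and treated libraries right, with a bar at each mean. The 5 entries left of the line do not overlap between groups, while control 1 holds the highest miR-205-5p (8446 CPM), and high dose 2 and medium dose 2 the highest mir-451a (5773 and 2846 CPM).

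Of the 18 miRNA lists, red blood cell miRNAs had the largest median difference. All 5 tested members were higher after alcohol, with a median log2 difference of 2.39, against -0.12 over all 289 miRNAs, and 0 were called. The median was 2.33 without control 1. The members include both miR-451a and the entry mir-451a, and both miR-486a-5p and miR-486b-5p, so they are not all separate RNAs. miR-451a, which matures without Dicer in developing red blood cells, stood at 356, 134, 150 and 327 CPM in controls, 137 and 2283 CPM at high dose, and 422 and 1271 CPM at medium dose. High dose 2 and medium dose 2 were far above every control, medium dose 1 was slightly above them, and high dose 1 lay inside their range. The entry mir-451a in the miRNA class followed the same pattern, at 564, 284, 178 and 444 CPM in controls and 402, 5773, 680 and 2846 CPM after alcohol. Its log2 difference was 2.72 (SE 0.78, unadjusted p = 0.00487, adjusted p = 0.715), and DESeq2 gave an adjusted p of 0.0124. miR-486a-5p was at 0, 71.9, 52.6 and 106 CPM in controls and 199, 873, 132 and 642 CPM after alcohol. DESeq2 called it too, with an adjusted p of 0.0470. miR-486b-5p was listed at 0 in control 1 as well, and a 0 lowers the control mean. These listings are among 104 entries, over 49 miRNAs in the 8 libraries, that were at 0 although the rest of the table predicted 50 reads or more.

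Exon counts of red blood cell genes were highest in the same libraries. Summed over 6 genes (Hba-a1, Hba-a2, Hbb-bs, Hbb-bt, Alas2 and Slc4a1) they were at 1.89, 3.66, 4.01 and 13.5 CPM of all counts in controls, 6.66 and 28.9 CPM at high dose, and 6.63 and 15.5 CPM at medium dose. Control 4 lay above high dose 1 and medium dose 1, so the groups overlapped. The exact two-sided permutation test gave p = 0.171 and, over 7 lists, an adjusted p of 0.6. In bulk RNA, more red blood cells and more RNA per cell cannot be told apart, and the part of these cells in the miR-451a and miR-486 values was not tested.

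Epithelial miRNAs had lower means after alcohol, and control 1 held their highest values. miR-205-5p and the miR-200 family maintain epithelial identity by restraining Zeb transcription factors. miR-205-5p stood at 8446, 693, 587 and 841 CPM in controls, 1352 and 287 CPM at high dose, and 317 and 163 CPM at medium dose. Control 1 was far above the other controls, and high dose 1 was above controls 2 to 4 while the other 3 treated libraries were below them. The log2 difference was -2.32 (SE 0.97, unadjusted p = 0.0357), and it was -0.37 without control 1, -3.05 without high dose 1 and -1.45 without both. miR-200b-3p was at 16753, 3550, 6932 and 2266 CPM in controls and 3771, 2172, 3311 and 1311 CPM after alcohol. All 5 tested members of the 8 listed were lower, 0 were called, and the median of -1.48 was -0.64 without control 1. Among them, miR-141-3p was listed at 0 in control 2, high dose 1 and high dose 2, where the rest of the table predicted 1482 to 1649 reads. miR-141-5p, not counted among these members, was higher, with a difference of 1.05 (SE 1.51).

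The group of miR-10 and its relatives miR-99, miR-100 and miR-125, in part encoded within the Hox clusters, was lower in 9 of 9 tested members, with a median of -0.66 and 0 called. miR-10a-5p stood at 61343, 7054, 16857 and 5510 CPM in controls, 25435 and 5293 CPM at high dose, and 6327 and 2532 CPM at medium dose. Control 1 and high dose 1 were the highest library of their groups. Without control 1 the difference of -1.20 turned to 0.08, and without high dose 1 it was -2.005. The list median was -0.18 without control 1 and -1.15 without high dose 1.

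The miR-29 miRNAs, which target collagens and DNA methyltransferases, were lower in 3 of 3 tested members with a median of -0.88, and -0.43 without control 1. miR-29a-3p, the most abundant, was at 24054, 18469, 9018 and 13142 CPM in controls and 10178, 11387, 8576 and 8602 CPM after alcohol. Control 3 lay among the treated libraries and the other controls above them. The let-7 family, which restrains growth, had 6 of 9 members lower and a median of -0.28, which was -0.55 without high dose 1 and turned to 0.32 without control 1 and to 0.38 with the counts of all classes as library size. let-7b-5p was at 35835 CPM in control 1 against 1024 to 3247 CPM in the other controls and 785 to 5090 CPM after alcohol.

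For each of the 10 most abundant miRNAs the groups overlapped. miR-191-5p, which shares its precursor transcript with miR-425, stood at 16877, 39531, 38718 and 27371 CPM in controls, 36617 and 69788 CPM at high dose, and 45588 and 69198 CPM at medium dose. High dose 1 alone lay inside the control range, and the difference was 0.85 (SE 0.40, unadjusted p = 0.0556). All 4 tested members of the miR-191 and miR-425 cluster were higher, with a median of 0.84 and 0 called. miR-34c-5p, a miRNA of male germ cells, was at 32940, 67664, 41379 and 28325 CPM in controls and 32175, 51545, 42020 and 50037 CPM after alcohol, a difference of 0.05 (SE 0.37) that was 0.30 without high dose 1 and -0.11 without control 4. miR-16-5p, a brake on cell division, was listed at 0 in control 4 and at 165763 to 331787 CPM in the other controls, against 278384 to 477968 CPM after alcohol. The scaling factor of control 4 in the miRNA family was 2.27, against 0.802 to 1.10 in the other 7 libraries. Of the miRNAs that earlier work tied to paternal stress, 5 of 10 tested were higher and 5 lower, with a median of -0.12, the value over all miRNAs.

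The 3 copies of miR-465-3p printed above show how these listings can make a difference. miR-465b-3p was at 33035 CPM in control 1, 24097 CPM in control 3 and 0 in controls 2 and 4 and in all 4 treated libraries. miR-465a-3p and miR-465c-3p were listed in the same libraries and at 0 in the same 6. The opposite arm, miR-465c-5p, was counted in every library, at 2766, 3757, 3697 and 2306 CPM in controls and 3004, 5343, 3614 and 4600 CPM after alcohol. DESeq2 called the 3 copies, and their log2 values are not given because the treated libraries are all at 0. Of the other 17 tested miRNAs of X-linked testis clusters, 11 were higher and 6 lower.

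**Figure D3:**
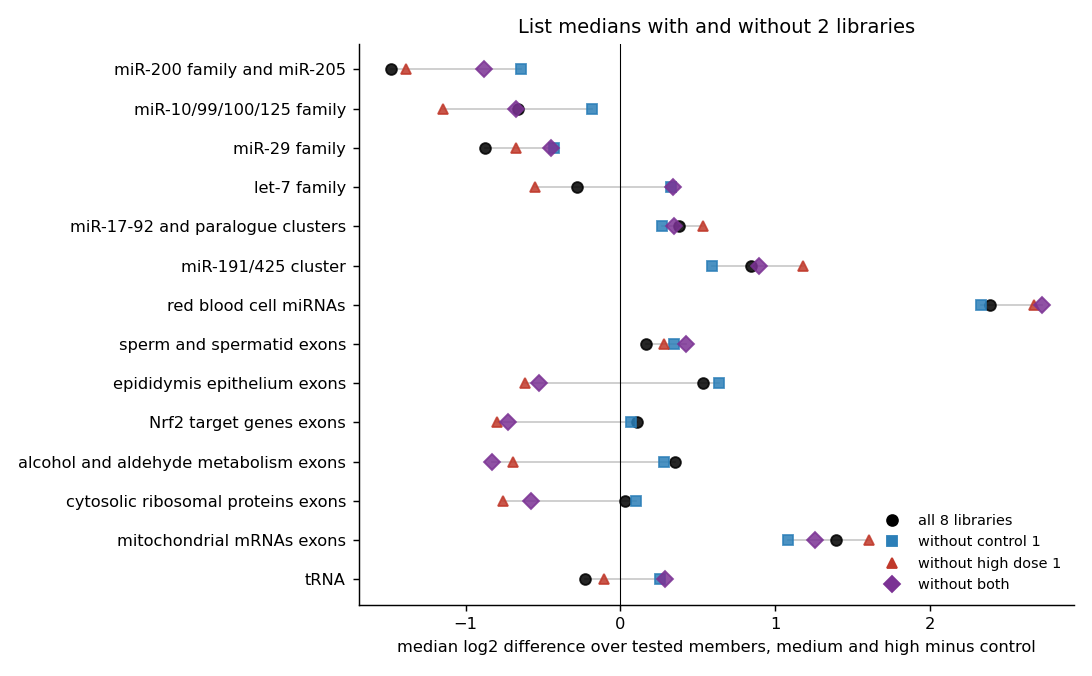
Median log2 difference (medium and high minus control) over the tested members of 14 lists, with all 8 libraries, without control 1, without high dose 1 and without both. The let-7 and tRNA medians change sign without control 1, and the epididymis, Nrf2 target, alcohol metabolism and ribosomal protein medians change sign without high dose 1.

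Exon counts are fragments of messenger and other long RNAs. The transcripts of the mitochondrial genome, which encode subunits of the respiratory chain and ATP synthase, had higher means after alcohol: 13 of 13 were higher, 12 with an unadjusted p under 0.05, and 0 were called. This list was added after the values were seen. COX2, a subunit of cytochrome oxidase, stood at 21.1, 168, 62.0 and 180 CPM in controls, 166 and 301 CPM at high dose, and 221 and 575 CPM at medium dose. Controls 1 and 3 were low, and high dose 1 lay beside controls 2 and 4. The log2 difference was 1.54 (SE 0.49, unadjusted p = 0.00579), and 1.23 without control 1. ND5, a subunit of complex I, was at 26.8, 175, 55.0 and 144 CPM in controls and 136, 297, 198 and 508 CPM after alcohol. The list median was 1.39, against 0.05 over all 14825 other features, and 1.08 without control 1. With no filter on low counts, 12 of these 13 transcripts were called. That fit held 45283 features and also called RNAs that stood high in 1 control alone. Among them were Ttn and Myh1 exons, high in control 4, and tRNA-Val-GTG, high in control 1.

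The vault RNA gene Vaultrc5, a component of the large ribonucleoprotein particles called vaults, had the lowest p among the other features and was lower in all 4 treated libraries. Its exon counts were at 144, 84.2, 133 and 95.9 CPM in controls, 58.3 and 44.8 CPM at high dose, and 52.6 and 27.7 CPM at medium dose. The highest treated library lay under the lowest control. The log2 difference was -1.31 (SE 0.25, unadjusted p = 5.83e-05, adjusted p = 0.865). It was -1.17 without control 1 and -1.46 without high dose 1, and DESeq2 gave an adjusted p of 0.00901.

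Other features with the lowest p overlapped between the groups. Ttn, which encodes the giant muscle protein titin, was at 19.5, 18.4, 10.3 and 79.5 CPM in controls and 10.7, 8.32, 10.7 and 9.98 CPM after alcohol, and control 4 alone stood high. Intron counts of Eif4a2, an RNA helicase gene whose introns host small nucleolar RNAs, were at 19.1, 48.9, 81.8 and 41.4 CPM in controls and 22.2, 7.60, 21.3 and 11.9 CPM after alcohol. Control 1 lay among the treated libraries. ID4_ sense repeats were at 86.3, 57.2, 70.0 and 60.8 CPM in controls against 75.0, 97.5, 110 and 162 CPM, with high dose 1 inside the control range and a difference of 0.70 (SE 0.22). The hairpin entry mir-451a followed the miR-451a pattern, with a difference of 2.50 (SE 0.65).

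Sperm transcripts had a higher sum after alcohol, and how far this held rested on the library size used and on control 1. The 14 sperm and spermatid marker genes summed to 282, 600, 543 and 590 CPM of all counts in controls, 642 and 735 CPM at high dose, and 725 and 682 CPM at medium dose. Every treated library lay above every control, with exact two-sided permutation p = 0.0286, the smallest that 4 against 4 libraries can give, and an adjusted p of 0.2 over 7 lists. Per counts of all classes but structural RNA, control 1 had the highest sum of all, 1164 CPM, and the exact p was 0.257. Controls 2 to 4 were then at 790, 762 and 760 CPM, below the 924 to 1045 CPM of the treated libraries. Per all exon counts the exact p was 0.171, and high dose 1, at 6688 CPM, lay inside the control range. Of the 14 genes 11 were higher, 0 were called and the median was 0.16, which was 0.35 without control 1 and 0.28 without high dose 1. Smcp, a protein of the sperm mitochondrial capsule, was at 158, 200, 174 and 245 CPM in controls and 244, 320, 336 and 263 CPM after alcohol. High dose 1 lay just under control 4, and the difference was 0.58 (SE 0.20, unadjusted p = 0.00909).

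**Figure D4:**
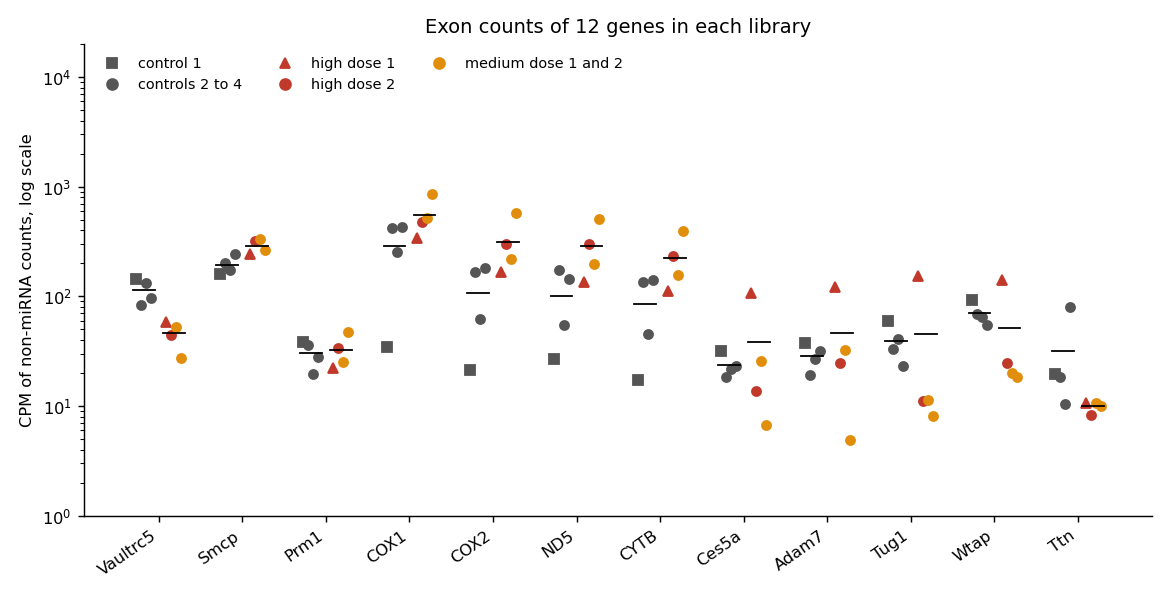
Exon CPM (log axis) of 12 genes in each library, controls left and treated libraries right, with a bar at each mean. Vaultrc5 does not overlap between groups, COX2 and ND5 are lowest in control 1, and Ces5a, Adam7, Tug1 and Wtap are highest in high dose 1.

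Epididymal transcripts separated the treated libraries from each other more than from controls. The summed exons of 12 genes of epididymis epithelium stood at 244, 424, 655 and 581 CPM of all counts in controls, 2007 and 312 CPM at high dose, and 564 and 106 CPM at medium dose. High dose 1 was far above all others and medium dose 2 was the lowest (exact p = 0.8286). Ces5a, a carboxylesterase secreted in the epididymis, was at 31.4, 18.4, 21.6 and 23.003 CPM in controls, 107 and 13.7 CPM at high dose, and 25.9 and 6.65 CPM at medium dose. Of the 8 tested genes 7 were higher, with a median of 0.53, which turned to -0.62 without high dose 1.

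Several other lists were highest in that library. Nrf2 target genes, which defend against oxidants, summed to 44.7, 73.3, 138 and 124 CPM of all counts in controls and 259, 61.0, 72.5 and 47.4 CPM after alcohol. High dose 1 was above every control and the other treated libraries were inside their range. Per counts of all classes but structural RNA, the sums were 184, 96.4, 194 and 160 CPM in controls and 372, 85.1, 104 and 69.6 CPM after alcohol. High dose 2 and medium dose 2 then lay below every control. Of the 20 tested, 15 were higher with a median of 0.11, which turned to -0.80 without high dose 1, and 0 were called. Nfe2l2, the gene of Nrf2 itself, had exon counts of 3.29, 3.15, 7.05 and 4.33 CPM in controls and 5.14, 0.723, 1.95 and 1.40 CPM after alcohol. Its difference was -0.78 (SE 0.47, unadjusted p = 0.111), and -1.60 without high dose 1. Genes of alcohol and aldehyde metabolism had a median of 0.35, with 6 of 9 higher, which turned to -0.69 without high dose 1. Aldh2, the main mitochondrial enzyme that clears acetaldehyde, was at 3.73, 4.14, 9.40 and 5.83 CPM in controls, 21.8 and 3.44 CPM at high dose, and 5.53 and 1.05 CPM at medium dose. For 77 ribosomal protein genes the median of 0.03 turned to -0.76 without high dose 1. The part of epididymal RNA in these values was not tested.

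Without high dose 1 the exon counts of 2 genes were called lower by edgeR. Tug1, a long noncoding RNA needed for male fertility, was at 60.0, 33.0, 40.4 and 23.3 CPM in controls, 153 CPM in high dose 1, and 11.0, 11.2 and 8.05 CPM in high dose 2 and medium dose 1 and 2. The last 3 libraries lay below every control. Its log2 difference was 0.24 (SE 0.69) with all libraries and -1.96 without high dose 1 (adjusted p = 0.0193). Wtap, of the complex that methylates adenosine in messenger RNA, was at 92.5, 69.4, 65.3 and 55.1 CPM in controls, 142 CPM in high dose 1, and 24.8, 20.2 and 18.6 CPM in the other treated libraries. Its difference of -0.45 (SE 0.51) became -1.75 (adjusted p = 0.0193). Over all exons without high dose 1, 835 of 7414 were lower and 110 higher at an unadjusted p under 0.05. With all 8 libraries the numbers were 77 lower and 91 higher of 7276.

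More introns were higher after alcohol than lower. Of 5993 tested, 3967 were higher and 2026 lower, with a median of 0.12, while exons were split with 3622 higher and 3654 lower and a median of 0.00. Among introns, 145 (2.42%) were higher in all treated libraries than in every control and 31 (0.517%) were lower. The intron median was 0.20 without control 1, 0.15 without high dose 1 and 0.22 without both. With the counts of all classes as library size the median of all 14825 features moved from 0.05 to 0.25, so these shifts are relative to the scaling. Examples with a mean of at least 10 CPM, chosen after their values were seen, were Clasp1 and Jarid2. Clasp1 introns, of a microtubule-binding protein gene, were at 13.6, 14.1, 16.9 and 11.2 CPM in controls and 19.5, 23.5, 20.4 and 18.4 CPM after alcohol, with every treated library above every control. Jarid2 introns, of a Polycomb cofactor gene, ran from 8.81 to 11.2 CPM in controls and from 11.6 to 15.6 CPM after alcohol.

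**Figure D5:**
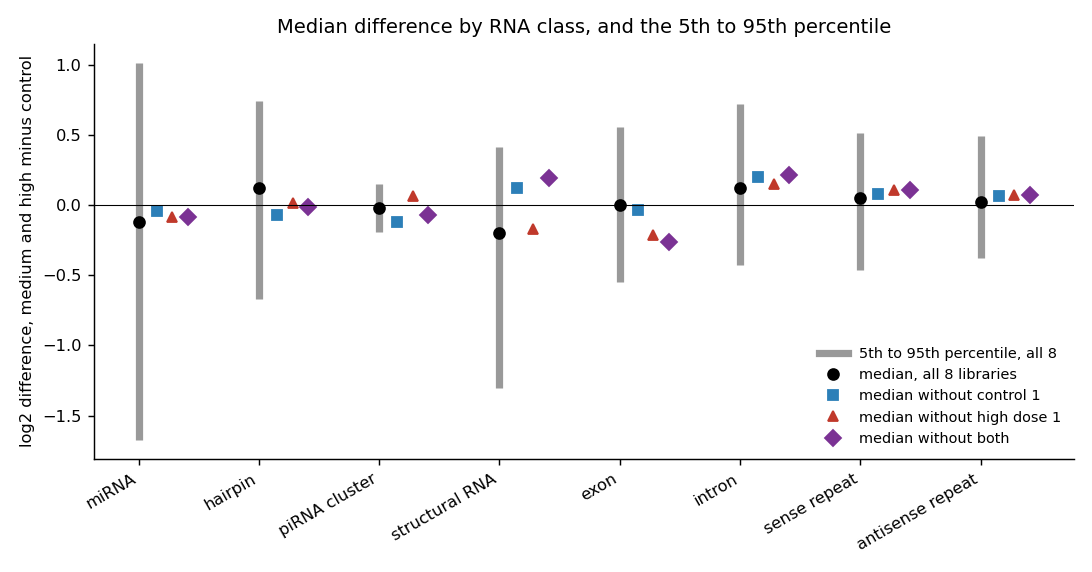
Median log2 difference (medium and high minus control) over tested features of each RNA class, with the 5th to 95th percentile for all 8 libraries (grey) and medians without control 1, without high dose 1 and without both. The intron median is above 0 in all 4, that of exons is -0.22 without high dose 1, and that of structural RNA turns from -0.20 to 0.12 without control 1.

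tRNA counts were by far the highest in control 1. tRNA-Gly-GGY, the source of the glycine tRNA fragments that sperm gain in the epididymis, stood at 665774, 48868, 61319 and 62884 CPM in controls, 57714 and 94735 CPM at high dose, and 97951 and 119936 CPM at medium dose. Control 1 was far above the other controls, while 3 of 4 treated libraries were above controls 2 to 4. The difference was -1.18 (SE 0.64) with all libraries, 0.71 without control 1, and 0.85 without control 1 and high dose 1, where edgeR called it (adjusted p = 0.0447). tRNA-Glu-GAG_ and tRNA-Val-GTG had the same change of sign, from -1.36 to 0.34 and from -1.67 to 0.51 without control 1. tRNA-Glu-GAA was lower both ways, at 499, 198, 234 and 182 CPM in controls and 197, 116, 174 and 91.0 CPM after alcohol, with a difference of -0.94 (SE 0.30) and -0.49 without control 1. Of 57 tested tRNA families 41 were lower and 16 higher, with 0 called and a median of -0.23, which turned to 0.25 without control 1 and to 0.09 with the counts of all classes as library size.

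piRNA clusters, the source of the abundant piRNAs of late spermatogenesis, differed little in level, and their direction rested on single libraries. Of 206 tested clusters 78 were higher and 128 lower, with a median of -0.02, 0 had an unadjusted p under 0.05, and 0 had groups that did not overlap. Without control 1, 197 of 207 were lower and 10 higher, with a median of -0.12 and an unadjusted p under 0.05 for 2, both lower. Without high dose 1, 147 were higher and 60 lower, with a median of 0.07. Their log2 differences had a 5th percentile of -0.19 and a 95th percentile of 0.15, a narrower range than that of any other class. L1 elements in sense, the mobile LINE-1 repeats, were higher in 61 of 77 families with a median of 0.15, which was 0.25 without high dose 1. In antisense 43 of 78 were higher, with a median of 0.03 that was 0.14 without control 1. IAP elements, retroviral repeats silenced by DNA methylation, had 9 of 19 families higher in sense and 9 of 18 in antisense. RLTR repeats were higher in 88 of 137 sense and 74 of 124 antisense families, with medians of 0.05 each that were 0.09 to 0.10 without control 1 or without high dose 1, and 0 of all these families were called. Over all tested repeats, 377 of 616 were higher in sense and 343 of 611 in antisense, with medians of 0.05 and 0.02.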

How the data were processed

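The authors deposited whole-number raw counts for annotated features, and those of all 12 WT libraries were used. Aligner, counting tool, genome build and treatment of reads with several positions are not given in the sources used here. Counts were summed per feature name within 8 classes (46413 features). miRNAs and all other features were fitted as separate families in R 4.3.3 with edgeR 4.0.16 (quasi-likelihood F test, filterByExpr, TMM scaling within the family, Benjamini-Hochberg adjustment at 0.05), with low-dose libraries sharing the spread. Single-feature CPM use these scaled counts. DESeq2 1.42.0 was an alternative. Others were another library size, no filter, only the 8 libraries, separate dose terms, a replicate block, a threshold of 0.1 and omitted libraries. Shares and marker sums were compared by exact permutation tests in Python 3.11.15 with scipy 1.17.1. The pipeline was tested on simulated data. Members and gene lists were chosen with earlier results of these data known. Named features were, by rule, the 10 miRNAs and 10 other features with the lowest unadjusted p and a mean of at least 10 CPM, the 10 most abundant miRNAs, the 3 most abundant features of each other class, 2 to 4 members per list, and Nfe2l2.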

Additional observations from a re-analysis of the deposited data

Results flagged for a closer look

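A library was listed when it lay far from the other 3 of its group, by Dixon's 95% criterion for 4 values. Of 116 groups tested 15 were listed, and chance lists about 1 in 20. Control 1 held 75.8% structural RNA against 22.5% to 28.7% in the other controls, 2.12% antisense repeats against 6.28% to 6.65%, and 1.79% sense repeats against 4.96% to 5.14%. Its summed spermatocyte exons were at 5.58 CPM of all counts against 17.99 to 20.5 CPM. Per counts other than structural RNA the sum was 23.01 CPM in control 1, against 23.2 to 27.003 CPM in the other controls. The repeat shares and this sum have the same denominator as the structural RNA share, so these lists are not independent. The miR-205-5p of control 1 was at 8446 CPM against 587 to 841 CPM, and its tRNA-Glu-GAA at 499 CPM against 182 to 234 CPM. Its tRNA-Gly-GGY was at 665774 CPM against 48868 to 62884 CPM, its tRNA-Glu-GAG_ at 496798 CPM against 43083 to 57166 CPM, and its tRNA-Val-GTG at 271151 CPM against 17671 to 18326 CPM. High dose 1 held 9.60% exons against 6.40% to 6.61% in the other treated libraries, and its miR-205-5p was at 1352 CPM against 163 to 317 CPM. Also in high dose 1, miR-10a-5p was at 25435 CPM against 2532 to 6327 CPM, Tug1 exons at 153 CPM against 8.05 to 11.2 CPM, and Wtap exons at 142 CPM against 18.6 to 24.8 CPM. Ttn exons were at 79.5 CPM in control 4 against 10.3 to 19.5 CPM in the other controls.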

How the results depend on the processing

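Both families had 0 calls with all 8 libraries. DESeq2 called 6 miRNAs and 1 other feature, Vaultrc5. With no filter on low counts 26 other features were called (32 at a threshold of 0.1), 14 higher and 12 lower. Omitting control 1 and high dose 1 together gave 5 calls, tRNA-Gly-GGY higher and Tug1, Wtap, Eif4a2 introns and ORR1A2-int sense repeats lower. With each library left out in turn, calls ran from 0 to 2 among other features, the 2 without high dose 1, and stayed 0 among miRNAs. With only the 8 libraries, 9 of 258 miRNAs and 254 of 12826 other features had an unadjusted p under 0.05, and 0 were called. The other library size and separate dose terms gave 0 calls in both families. The replicate block also gave 0 in both. Deviations of same-numbered libraries correlated from -0.156 to 0.271, and in 4 of 8 pairs a library matched its own number best. Whether the numbers pair the libraries cannot be told from so few pairs. Among 43 of the named features followed over these settings, 14 of them added after their values were seen, 600 of 641 values kept direction and side of the threshold, 27 passed it, and 14, of 7 features, changed direction. With each library left out in turn the log2 differences of these 7 ran from -1.96 to 0.55 for Tug1, from -2.005 to 0.076 for miR-10a-5p, from -0.11 to 0.49 for miR-34c-5p, from -0.42 to 0.067 for mir-101b, from -1.52 to 0.71 for tRNA-Gly-GGY, from -1.71 to 0.34 for tRNA-Glu-GAG_ and from -2.03 to 0.51 for tRNA-Val-GTG. Without control 1 and high dose 1 the 3 tRNAs were at 0.85, 0.29 and 0.55 and Tug1 at -1.65. Tug1 was at -0.47 with separate dose terms and -0.36 with the replicate block.

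No difference in class shares or marker sums passed adjustment with all 8 libraries, and several changed sign. The causes were not tested. In percentage points, with each library left out in turn, the differences ran from -0.721 to 0.788 for antisense repeats, from -0.703 to 1.16 for exons, from -0.203 to 1.06 for introns, from -5.18 to 4.13 for piRNA clusters, from -0.587 to 0.529 for sense repeats and from -12.5 to 5.23 for structural RNA. Without control 1 and high dose 1 together, the differences became -0.736 for antisense repeats, -1.48 for exons, -0.387 for introns, -5.04 for piRNA clusters, -0.597 for sense repeats and 5.16 for structural RNA. With structural RNA out of the denominator they became -0.437 for antisense repeats, -0.508 for exons, -0.810 for introns, -2.38 for piRNA clusters and -0.4997 for sense repeats. With only the highest copy of each structural RNA family, a setting chosen after seeing the data, they became -0.0607 for introns, -0.359 for piRNA clusters and -0.104 for sense repeats.

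For summed marker exons, in CPM, the differences with each library left out ran from -2.64 to 2.34 for spermatocytes, from -148.8 to 484.8 for epididymis epithelium, from -1.15 to 3.47 for leukocytes and from -5.82 to 10.2 for smooth muscle and fibroblasts. Without control 1 and high dose 1 they became -1.49, -226.2, -2.53 and -10.7 in the same order. Per exon counts the smooth muscle difference was -7.01. Per counts other than structural RNA, a setting chosen after seeing the data, it was -2.94 and that of spermatocytes -1.35. Control 3 was the shallowest library, with 1993933 counts.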

Other observations

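Other cell types that a sperm preparation could hold overlapped between the groups. Summed leukocyte exons were at 2.70, 10.1, 16.6 and 11.2 CPM of all counts in controls 1 to 4, 15.6 and 10.3 CPM at high dose and 13.4 and 6.61 CPM at medium dose. Smooth muscle and fibroblast exons ran from 13.9 to 60.2 CPM in controls and from 15.5 to 54.4 CPM after alcohol, and hepatocyte exons from 0.450 to 4.01 CPM and from 0.141 to 3.31 CPM. Of 6 tested leukocyte miRNAs 2 were higher, with a median log2 difference of -0.26, muscle and stromal miRNAs 4 of 9 and -0.07, and liver miRNAs 1 of 2 and -0.18. Without control 1 these medians were -0.05, -0.20 and 0.19 in the same order, and the liver median was 0.13 without high dose 1. miR-122-5p, the main liver miRNA, was at 732, 82.7, 215 and 207 CPM in controls and 140, 43.9, 602 and 11.4 CPM after alcohol, with control 1 and medium dose 1 high.

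Control 4, the library with high Ttn, also held the most exon counts of Myh1, a skeletal muscle myosin, at 8.96 CPM against 0 to 1.16 CPM in the other 7 libraries. Its miR-133a-3p, a miRNA of muscle, was at 2056 CPM against 304 to 1344 CPM in the other controls and 373 to 1120 CPM after alcohol. The part of muscle RNA in the Ttn value was not tested.

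B1 repeats, short elements related to the signal recognition particle RNA, were lower in 10 of 10 antisense families, with a median of -0.14, and in 6 of 10 sense families, with a median of -0.09. Scaled to the counts of all classes together, these medians were 0.00 and 0.05. B2 repeats were lower in 3 of 3 families on both strands, with medians of -0.15 in sense and -0.19 in antisense, and with that library size the medians were 0.00 and 0.05. Without control 1 the B2 antisense median turned to 0.10. In all these lists 0 members were called.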
